A study of Danio rerio with 6 samples.

Results

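The genes described here are the variable innate immune gene families of the zebrafish, taken as every entry of the count table whose symbol begins with mhc1, mhc2, nitr, nlr, gimap, ftr and a digit, adgre, dicp, cd300, mfap4, tlr and a digit, or ifit. The rule found 200 of the 32057 genes in the table, in 10 families; none of the 200 symbols began with gimap or cd300. The families were chosen by on-off differences between the groups that had been seen in these same libraries. All differences of the 200 genes between the groups are therefore given as a description, with no p-value, and nothing is supported with them.

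Single whole embryos of Danio rerio at 30 hours post fertilisation (hpf) were profiled by poly-A mRNA sequencing, 3 of genotype WT (wild type) and 3 of genotype 3etv, which the series title describes as triple mutants of the Pea3 group. Pea3 factors are ETS transcription factors that act downstream of fibroblast growth factor signalling. Which 3 genes are mutated is not named in the labels, and strain, parents and clutch are not given in the sources used here. A difference in family or haplotype that follows the genotype therefore cannot be told apart from an effect of the mutations. As a check of the labels, the Pea3-group transcripts etv4, etv5a and etv5b had lower counts in every mutant than in any wild type, with 657 to 894, 836 to 1021 and 1618 to 1879 counts per wild-type embryo and 350 to 471, 312 to 392 and 477 to 578 per mutant. Libraries held 17570505 to 25512862 counts in genes, and every mutant library was shallower than every wild-type library. Levels are raw counts or CPM, the count expressed relative to the TMM-scaled size of its library.

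Innate immune receptors of bony fish are encoded by large families of similar genes that lie in clusters and differ in number and sequence between individuals. Class I MHC proteins (mhc1) present peptides to T cells or, in the non-classical lineages, serve other roles, and class II proteins (mhc2) present peptides taken up by macrophages and B cells. NOD-like receptors (nlr) sense microbes inside the cell, and Toll-like receptors (tlr) sense them at the surface or in endosomes. NITR and DICP proteins (nitr, dicp) are fish receptors with immunoglobulin domains, and adgre genes encode adhesion G-protein-coupled receptors related to the mammalian macrophage antigen F4/80. finTRIM proteins (ftr) are fish members of the TRIM family, several of them antiviral, ifit genes are interferon-induced, and mfap4 encodes a secreted fibrinogen-domain protein whose gene marks macrophages in zebrafish. The ifit prefix also took in ifitm1 and ifitm5, whose small transmembrane proteins belong to a different family.

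Most of these genes had few or no counts at 30 hpf. Reads with several alignments are tallied apart from the genes, so near-identical copies can be transcribed and still have few counts. Of the 200 entries, 16 had no count in any library and 127 more had a mean under 10 counts per library, and 75 had at least 1 count in every library. Together they held between 5146 and 7217 counts per library, or 0.0264% to 0.0303% of all gene counts, and the groups overlapped in this share. Only 61 passed the expression filter and entered the fit. A gene that passed mainly through the group where it is high had to differ, so the counts below describe the fitted entries and not all 200.

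Among the 61 fitted entries, 13 were called higher and 8 lower in mutants (edgeR quasi-likelihood test, adjusted p under 0.05), against 12.6% higher and 13.5% lower of all 19889 genes tested. Scaled by library totals alone the members gave 13 and 9, and all genes 1720 higher and 3312 lower in place of 2502 and 2676. In either direction 34.4% of the fitted entries were called, against 26.0% of all genes tested. The ranges of the groups did not overlap for 29 entries (47.5%), against 42.9% of all genes tested. The median log2 fold change was -0.0036, beside -0.0068 over all genes tested, so the entries as a whole did not lie to one side. Their median absolute log2 fold change was 0.57, beside 0.27 over all genes, and 16 entries (26.2%) differed by 1 or more on the log2 scale, beside 8.33% of all genes. The fitted entries were also low, with a median of 49.2 counts per library beside 209 over all genes tested, and the part of this in the larger fold changes was not tested.

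**Figure D1:**
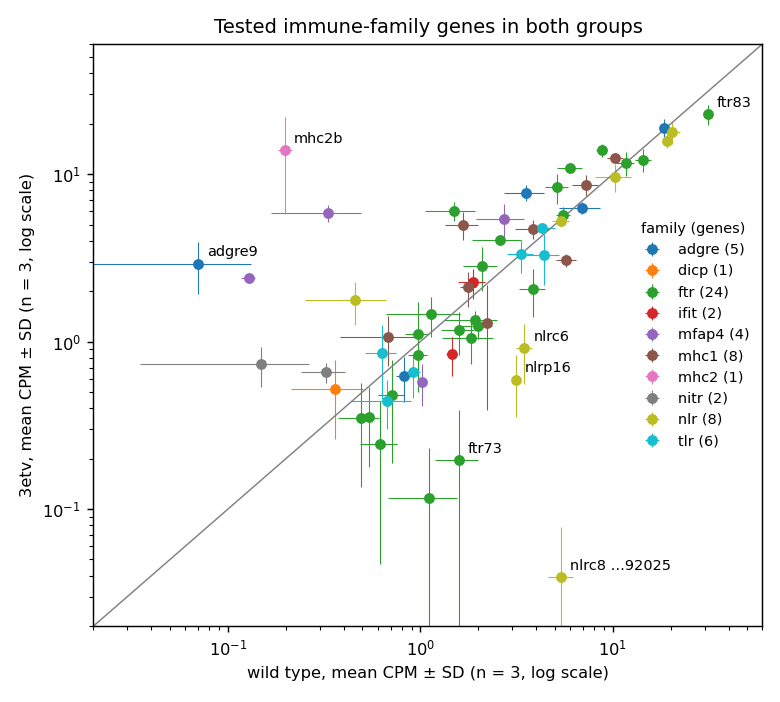
Mean CPM of the 61 fitted immune-family genes in wild types (horizontal) and mutants (vertical), both on log scales, with colours for the families. Bars show the SD over 3 embryos and are cut off at the axis limits. Where the SD exceeded the mean, the bar was shortened on both sides to just under the mean. Most genes lie near the line of equality, and mhc2b and adgre9 above it and 1 of the nlrc8 entries below it lie farthest from it.

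Fitted MHC entries differed in both directions, and only mhc2b was far higher in mutants. The largest fitted increase over wild type was that of mhc2b (ENSDARG00000104635), a class II gene whose current symbol in the gene name table is mhc2dgb. It had 4, 5 and 5 counts in the wild types and 238, 388 and 127 in the mutants. Every mutant was thus far above every wild type, but the mutants themselves spanned a wide range, and the mutant mean of 13.9 ± 8.14 CPM (SD, n = 3) compares with 0.198 ± 0.0165 CPM in wild types. The log2 fold change was 6.09 ± 0.499 (SE). The other class II entries were near 0, with at most 1 count for mhc2dab and at most 6 for mhc2dbb.

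Of the 18 class I entries, 8 were fitted, 1 of them called higher and 1 lower. The called share was 25%, near the 26.0% of all genes tested. The Z-lineage gene mhc1zca had 35, 52 and 32 counts in wild types and 90, 74 and 111 in mutants, with no overlap. Its level was 1.67 ± 0.323 CPM in wild types and 4.99 ± 0.931 CPM in mutants, and the log2 fold change was 1.57 ± 0.232. In gene order on the RefSeq assembly it stands in a row of Z-lineage genes, and its fitted neighbours mhc1zda and mhc1zba differed less, with log2 fold changes of 0.65 ± 0.405 and 0.26 ± 0.167 that were not called. The L-lineage gene mhc1lia went the other way, from 109, 164 and 134 counts in wild types to 62, 47 and 60 in mutants, a log2 fold change of -0.91 ± 0.185. The class I entry with the most counts, mhc1zea, held 206 to 291 counts per wild-type embryo and 211 to 252 per mutant and was not called. After scaling, every mutant lay above every wild type for mhc1zea, at 12.5 ± 0.181 CPM beside 10.3 ± 0.927 CPM.

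Low class I entries included 3 with a count in every wild type and none in any mutant. The classical U-lineage gene mhc1uba had 3, 7 and 5 counts in wild types, mhc1lja had 3, 11 and 3, and mhc1zaa had 2, 7 and 1. Against a floor of 3 counts over the mutant group these genes were lower in mutants by 3.91-fold, 4.43-fold and 2.60-fold in that order. The ratios take the wild-type counts as exact and are not lower limits. A further U-lineage gene, mhc1uma, had 46, 56 and 55 counts in wild types and 26, 37 and 7 in mutants, so that the third mutant stood far below the other two. Summed over all class I entries, however, the level was 34.5 ± 4.14 CPM in wild types and 39.0 ± 0.687 CPM in mutants, with overlapping ranges.

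Entries labelled as intracellular NOD-like receptors held the largest fitted difference in the other direction. The entry nlrc8 with identifier ENSDARG00000092025 is now named si:dkey-121n8.8 in the gene name table, so the symbol may not name a NOD-like receptor. This entry had 127, 115 and 136 counts in wild types and 0, 2 and 0 in mutants. The ratio of summed counts, scaled to depth, was 148-fold, with an exact 95% binomial interval from 40.6-fold to 1223-fold that covers counting error only. The fitted log2 fold change of -6.99 moved to -9.87 without the second mutant, the only mutant with a count. The other nlrc8 entry (ENSDARG00000076819) did not follow it, with 176, 265 and 287 counts in wild types and 165, 199 and 162 in mutants, a log2 fold change of -0.10 ± 0.182 that was not called.

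Lower in mutants were also nlrp16 and nlrc6. The entry labelled nlrp16 is now named si:ch211-191a16.3 in the gene name table, so the symbol may not name a NOD-like receptor. Counts of nlrp16 were 68, 84 and 70 in wild types and 7, 14 and 11 in mutants, a log2 fold change of -2.42 ± 0.309. Counts of nlrc6 were 82, 80 and 82 in wild types and 25, 16 and 10 in mutants, a log2 fold change of -1.91 ± 0.293. In both genes every mutant lay below every wild type, yet neither was absent. In contrast nlrc5, which in mammals switches on class I MHC genes, was higher in mutants, with 8, 8 and 16 counts in wild types and 43, 33 and 22 in mutants and a log2 fold change of 1.95 ± 0.395. Of the remaining fitted members, nlrc3l1, nlrc3l and nlrx1, the last a mitochondrial regulator in mammals, had log2 fold changes from -0.27 to -0.02 and were not called. Over all 13 nlr entries the summed level was 68.8 ± 4.30 CPM in wild types and 52.8 ± 5.13 CPM in mutants, without overlap.

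No Toll-like receptor was called, beside 26.0% of all genes tested, but few were fitted. Of 21 tlr entries, 6 were fitted, with log2 fold changes from -0.62 to 0.44 and overlapping CPM ranges in all 6, the tlr7 entry below included. The flagellin receptor gene tlr5b had 79, 110 and 116 counts in wild types and 90, 78 and 94 in mutants, and its relative tlr5a had 20 to 23 counts per wild-type embryo and 10 to 16 per mutant, which overlapped after scaling to depth. The entry labelled tlr7 with counts (ENSDARG00000075685, 46 to 99 per library) is FRMPD4 in the current gene name table, and the other tlr7 entry was at 0 in every library, so the symbol may not name a Toll-like receptor.

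Surface receptors of the NITR, DICP and adhesion families mostly had few or no counts. Of 26 nitr entries, 6 had no count in any library and 2 were fitted. The gene nitr3a had 1, 7 and 3 counts in wild types and 10, 14 and 16 in mutants, a log2 fold change of 2.2 ± 0.544. Its neighbour in gene order, nitr3c, had 5, 9 and 9 counts in wild types and 11, 12 and 13 in mutants. It lay higher in every mutant but was not called. Of 9 dicp entries only dicp3.1 was fitted, with 5 to 13 counts per library and overlapping groups.

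The adhesion receptor adgre9 was close to absent in wild types. It had 2, 3 and 0 counts there and 80, 36 and 48 in mutants. The ratio of summed counts was 42.0-fold, with an exact 95% interval from 17.6-fold to 131-fold. That interval covers counting error only and not the spread between embryos. The fitted log2 fold change of adgre9, 5.26, was 5.85 without the second wild type. The gene next to it in order, adgre10, did not differ beyond the spread, with 18.5 ± 0.490 CPM in wild types and 18.9 ± 2.50 CPM in mutants. It was the adgre entry with the most counts.

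Among effectors, the mfap4 family was higher in mutants in its sum. Summed over its 6 entries the level was 4.20 ± 0.711 CPM in wild types and 14.5 ± 2.16 CPM in mutants, and no mutant overlapped a wild type. Entry ENSDARG00000089667 had 3 counts in each wild type and 50, 39 and 44 in mutants. The ratio was 18.9-fold, with an exact 95% interval from 9.67-fold to 42.3-fold that covers counting error only. Entry ENSDARG00000094408, now named mfap4.11, had 4, 13 and 7 counts in wild types and 129, 87 and 108 in mutants, and a log2 fold change of 4.09 ± 0.305. These 2 entries carried most of the difference. The entry named mfap4 itself was at 2.71 ± 0.758 CPM in wild types and 5.38 ± 1.22 CPM in mutants, and entry ENSDARG00000088745 was lower in every mutant, with 22 to 26 counts per wild-type embryo and 8 to 15 per mutant, but was not called.

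In zebrafish mfap4 is read as a macrophage gene, so markers of that cell type were set beside it. The 6 defining macrophage markers were mpeg1.1, csf1ra, marco, spi1b, irf8 and cxcr3.2. All were detected and none was called, beside 26.0% of all genes tested. Their summed level ran from 12.1 to 14.8 CPM in wild types and from 10.3 to 12.3 CPM in mutants, so the mutants were not above the wild types. The sum was carried by csf1ra and spi1b, at 5.2 and 5.0 CPM in wild types and 4.4 and 4.2 CPM in mutants. In RNA from whole embryos fewer cells of a type and less RNA per cell cannot be told apart.

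finTRIM genes formed the largest family, with 79 entries, 24 of them fitted, 4 called higher and 4 lower. The called share was 33.3%, beside 26.0% of all genes tested. The family's summed level hardly differed, at 115 ± 5.41 CPM in wild types and 117 ± 8.22 CPM in mutants. Higher in mutants was ftr23 most of all, with 43, 34 and 27 counts in wild types and 104, 117 and 110 in mutants, a log2 fold change of 2.02 ± 0.236. Smaller differences were those of ftr67, ftr51 and the entry ENSDARG00000111722 of ftr36, with log2 fold changes of 0.85 ± 0.151, 0.67 ± 0.131 and 0.70 ± 0.184. The ftr36 call was lost without the third mutant, where its log2 fold change was 0.53.

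Lower in mutants were ftr73 and the entry ENSDARG00000097679 of ftr90, now named ftr88. Counts of ftr73 were 36, 50 and 27 in wild types and 0, 10 and 0 in mutants, and counts of this ftr90 entry were 15, 40 and 25 in wild types and 0, 5 and 1 in mutants. In both genes the second mutant held nearly all of the mutant counts. The fitted log2 fold changes were -3.08 ± 0.731 for ftr73 and -3.28 ± 0.678 for the ftr90 entry. Without the second mutant they were -8.12 and -5.13, and without the first mutant -2.45 and -2.66. The ftr73 call was lost in DESeq2's Wald test (log2 fold change -3.03). The antiviral finTRIM gene ftr83 held the most counts of the family, with 646, 843 and 725 in wild types and 476, 430 and 351 in mutants, a log2 fold change of -0.45 ± 0.115. The ftr83 call was lost without the third mutant (log2 fold change -0.33). The gene ftr14l was lower by -0.91 ± 0.259, and its call was lost without the second wild type (-0.77) and without the first mutant (-0.65).

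Interferon-induced ifit genes showed no call, beside 26.0% of all genes tested. Only ifit16 and ifit11 were fitted of 10 entries, at 38 to 48 counts per wild-type embryo and 31 to 50 per mutant for ifit16. Counts of ifit11 were 30, 40 and 33 in wild types and 12, 15 and 19 in mutants. Every mutant lay below every wild type for ifit11, and its log2 fold change was -0.79 ± 0.317.

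**Figure D2:**
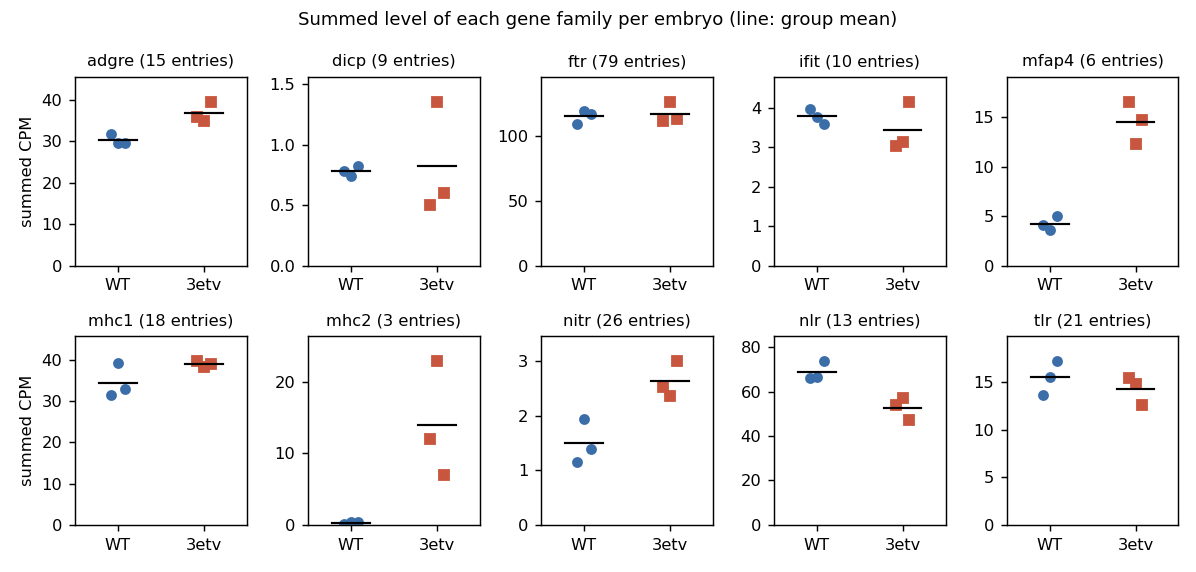
Summed CPM of all entries of each family in each embryo, with a line at the group mean of 3 embryos and each vertical axis starting at 0. The adgre, mfap4, mhc2 and nitr sums lie higher and the nlr sum lower in every mutant, while the ftr sum is nearly level at 115 and 117 CPM.

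On-off differences in the strict sense were few. Under a rule of at most 3 counts in every library of a group and at least 10 in every library of the other, adgre9 and the mfap4 entry ENSDARG00000089667 were present in mutants only, against 0.140% of the 27803 genes with any count. The nlrc8 entry ENSDARG00000092025 was present in wild types only, against 0.198% of those genes. Just outside the rule stood mhc2b, with up to 5 counts in wild types, and the ftr90 entry ENSDARG00000097679, with up to 5 in mutants. Farther outside stood nitr3a, with up to 7 counts in wild types and at least 10 in mutants, and ftr73, which 10 counts in the second mutant kept out. Without the second mutant, 4 entries met the rule for wild types only, nlrc8, ftr43, ftr73 and the ftr90 entry, and without the third wild type 2, nlrc8 and ftr53, while 82 and 72 of all genes met it in place of 55. The mutants-only set was joined by nitr3a without the second wild type, with 59 of all genes in place of 39, and by mhc2b when libraries were thinned to equal totals, with 47. In the thinned libraries 39 of all genes were present in wild types only, in place of 55, and nlrc8 was still the only member. The rule uses raw counts, and every mutant library was shallower than every wild-type library, so the 2 background shares are not at equal depth.

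**Figure D3:**
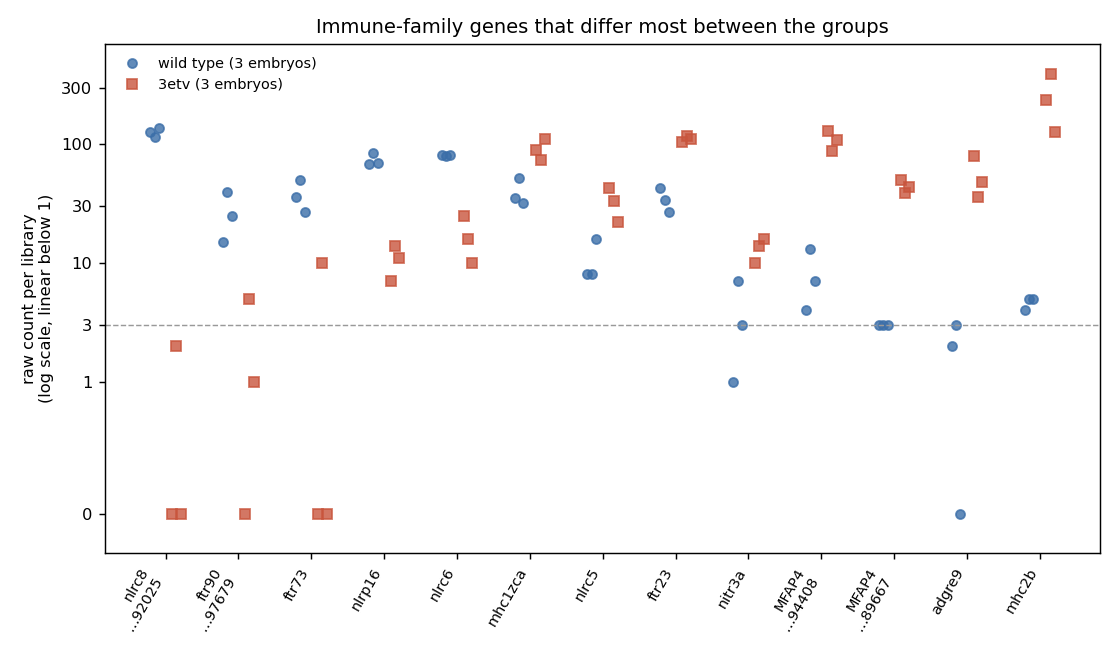
Raw counts per library of the fitted immune-family genes that differed by 1.5 or more on the log2 scale, on a log axis that is linear below 1, with circles for the 3 wild types, squares for the 3 mutants and a dashed line at 3 counts. No gene shown has overlapping groups, and the second mutant alone keeps ftr73 above 0.

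At a lower level, 4 entries had no count in any wild type and at least 1 in every mutant, against 0.378% of the 27803 genes, and 7 had the reverse pattern, against 0.748%. None of the 11 was fitted. The first 4 were ftr52p with 11, 5 and 3 counts in the mutants, ftr98 with 5, 4 and 10, nlrc9 with 4, 3 and 4 and nlrc7 with 3, 2 and 1. The other 7 were mhc1uba, mhc1lja, mhc1zaa, ftr92, ftr72, nitr10a and the entry ENSDARG00000053366 of ftr12, with between 1 and 11 counts per wild type. For these genes the depth leaves room for a low level in the group at 0. At the same level, a count of 0 is also more likely in the mutant libraries, which were shallower. Against a floor of 3 counts over the group at 0, ftr52p and ftr98 were 8.11-fold higher in mutants, and nitr10a was 1.3-fold lower. These ratios take the counts of the other group as exact, so they are not lower limits.

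Entries that share a symbol could differ in how far they stood apart between the groups. The 200 entries include 17 symbols used more than once, on 43 entries. Of the adgre5b.3 entries, ENSDARG00000089904 had 56, 104 and 94 counts in wild types and 134, 139 and 151 in mutants, a log2 fold change of 1.11 ± 0.200. The other, ENSDARG00000112943, had 192, 145 and 147 counts in wild types and 119, 117 and 109 in mutants. After scaling to depth its groups overlapped, and its log2 fold change of -0.14 ± 0.188 was not called. Added together, the adgre5b.3 entries held 241 to 249 counts per wild-type embryo and 253 to 260 per mutant, a narrow range before scaling to depth, and 9.68 to 11.4 CPM per wild-type embryo and 12.8 to 15.1 CPM per mutant. The first wild type had the lowest count of one entry and the highest of the other. The table tallies reads with several alignments apart from the genes, and their share was 6.25 ± 0.213% in wild types and 5.26 ± 0.101% in mutants. The part of this in the levels of near-identical entries was not tested, and the counts of such entries are uncertain.

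Of the 8 entries called lower, 4 lay close together in gene order. The RefSeq gene table of assembly GRCz12tu was used only for the order of genes, and 49 of the 61 fitted entries could be placed. The run was chosen after its values were seen. It begins with nlrc8 ENSDARG00000092025, passes the other nlrc8 entry, nlrc9, ftr76, the ftr90 entry, ftr73, ftr72 and ftr91, and ends with nlrp16, and it holds 17 entries of the count table, 9 of them immune-family genes. Of the 5 that were fitted, 4 were called lower in mutants. Among low entries of the run, ftr76 had 3, 6 and 7 counts in wild types and 2, 0 and 0 in mutants, while nlrc9 had its counts only in mutants.

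Immune-family and other genes of the run were told apart by the symbols of the count table alone. Most of the other genes were near equal. Of 6 other fitted genes between nlrc8 and nlrp16, 4 were not called: spsb4b, si:ch211-276c2.4, slc25a36b and pxylp1, with log2 fold changes from -0.0045 to 0.23. The uncharacterised gene si:ch211-191a16.5, next to nlrp16, had 30, 52 and 44 counts in wild types and 2, 0 and 7 in mutants, or -3.40 on the log2 scale (edgeR's quasi-likelihood test, Benjamini-Hochberg adjusted p = 0.00122). CR854897.1, beside nlrc8, was lower by -0.92 (edgeR adjusted p = 0.0116).

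**Figure D4:**
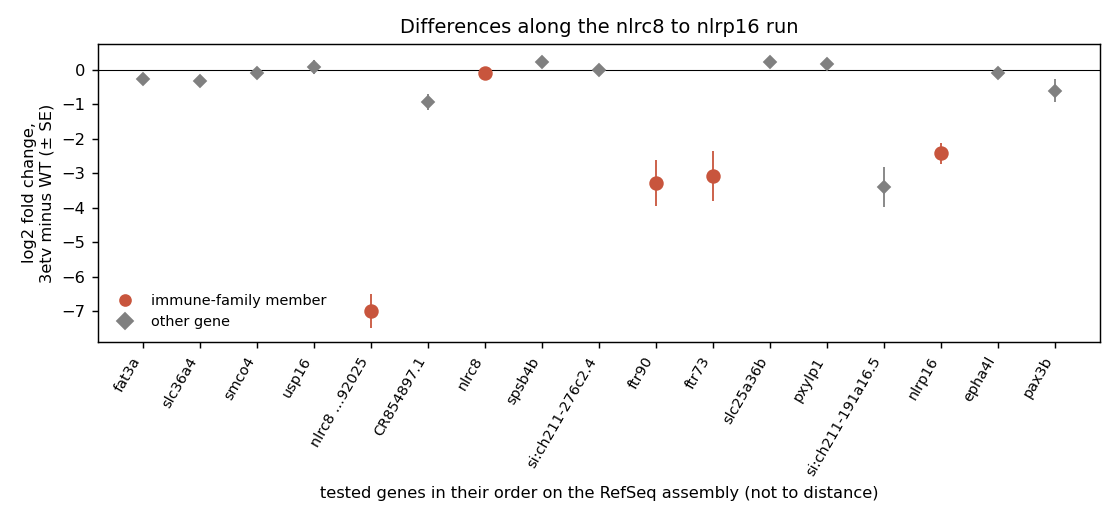
Log2 fold change with SE, mutants minus wild types, of the fitted genes from fat3a to pax3b in their order on the RefSeq assembly, equally spaced and not to distance. The low values belong to 1 nlrc8 entry (-6.99), ftr90, ftr73, si:ch211-191a16.5 and nlrp16, and they alternate with genes near 0.

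Of the 7 entries that differed by 3 or more on the log2 scale, 6 could be placed, 3 of them in the run and 3 elsewhere, which are adgre9, mhc2b and mfap4.11. For the 3 outside the run, the 5 fitted genes on each side came to 29 different genes that are not themselves immune-family members. Of these, 12 were called (41.4%, beside 26.0% of all genes). Around all 6 placed entries, 15 of 41 such genes were called (36.6%). Directly before adgre9, the uncharacterised gene zgc:172106 had 50, 63 and 66 counts in wild types and 5, 1 and 5 in mutants, or -3.63 on the log2 scale (edgeR adjusted p = 8.48e-05), opposite in direction to adgre9. Near mhc2b, setd1bb was lower in mutants by -1.56 (edgeR adjusted p = 0.00519) and ccdc157 higher by 0.93 (edgeR adjusted p = 0.00758). Over all families, 7 of the 12 pairs of fitted members that are neighbours differed in the same direction (58.3%), beside 52.1% of 16577 neighbouring pairs of all genes.

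Embryos of the same group also differed from one another in some of these genes. Spread was measured as chi-square per degree of freedom of the counts on library depth, which averages 1 when counting error alone acts. Over 3 embryos its median is then below 1, and any further spread raises it more in genes with more counts. In the mutants it was 85.0 for mhc2b, 11.2 for ftr73 and 11.2 for mhc1uma. In the wild types it was 0.031, 2.32 and 0.194 for the same genes. The wild types held only 4 to 5 counts of mhc2b, where further spread could hardly show, so its values in the groups are not comparable. Other members had the larger spread in wild types. It was 16.5 there and 2.77 in mutants for nlrc3, which was not fitted. For nlrc8 ENSDARG00000076819 it was 10.1 and 6.24, and for adgre5b.3 ENSDARG00000112943 it was 9.41 and 0.790. The second mutant was the mutant with the highest counts of mhc2b, mhc1uma, ftr73, the ftr90 entry and the nlrc8 entry ENSDARG00000092025, the last with 2 counts beside 0. It was also the mutant with the lowest counts of adgre9, mfap4, mfap4.11 and the mfap4 entry ENSDARG00000089667. These genes were chosen after their values were seen. Over fitted members with a mean of 10 to 50 counts the median was 0.788 in wild types and 1.88 in mutants, beside 1.53 and 1.52 over all fitted genes at that level. At 50 to 200 counts the order was the other way, with 2.49 in wild types and 2.06 in mutants beside 2.25 and 1.84 over all genes. At 200 to 1000 counts, over 9 members, the medians were 1.98 and 5.92 beside 4.15 and 2.68.

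Genes of the same pathways that the symbol rule does not take in were set beside the families next. These lists, and those of blood cell markers below, were chosen with earlier results of these data known. Their shares of calls therefore describe the listed genes only. Of 23 fitted genes of antigen processing and presentation, 4 rose and 4 fell, or 34.8%, beside 26.0% of all genes, and the median log2 fold change of the list was 0.09. The peptide transporter subunit tap1 fell from 11, 31 and 27 counts in wild types to 1, 1 and 6 in mutants, or -2.69 ± 0.618 on the log2 scale (edgeR adjusted p = 0.00756). The peptide-trimming aminopeptidase erap1a fell by 1.42 ± 0.232 on the log2 scale (edgeR adjusted p = 0.00105), and its relative erap2 rose from 3, 3 and 5 counts to 16, 14 and 14, by 2.31 ± 0.448 (edgeR adjusted p = 0.00296). The cathepsin ctss2.1 fell by 0.96 ± 0.219 (edgeR adjusted p = 0.00703), and the proteasome activator psme2 rose by 0.47 ± 0.116 (edgeR adjusted p = 0.0104). The calls of the chaperone gene calr3b, the proteasome gene psmb10 and the tapasin-related gene tapbpl were each lost when single embryos were left out, with adjusted p-values over the alternatives of 0.0033 to 0.0761, 0.0219 to 0.0729 and 0.0263 to 0.149. Chosen after their values were seen, the class I light chain genes b2m and b2ml had log2 fold changes of 0.22 ± 0.328 and 0.37 ± 0.168 and were not called (edgeR adjusted p = 0.657 and 0.121).

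Of 21 fitted interferon-response genes, 7 rose and 2 fell (42.9%, beside 26.0% of all genes), and the median log2 fold change was 0.19. The cytokine-signalling inhibitors socs3a and socs3b rose most clearly. Counts of socs3b went from 170, 152 and 182 to 399, 411 and 420, or 1.64 ± 0.142 on the log2 scale (edgeR adjusted p = 1.06e-05), and socs3a rose by 1.81 ± 0.308 (edgeR adjusted p = 0.00135). The transcription factor gene irf1b rose by 2.12 ± 0.450 (edgeR adjusted p = 0.00481) with 3 to 9 counts per wild-type embryo and 16 to 25 per mutant. The gene irf9 rose by 0.99 ± 0.244 (edgeR adjusted p = 0.011), a call lost without the second mutant (adjusted p 0.0551). The other risers were crfb1, trim25 and stat1a, by 0.90 ± 0.183, 0.67 ± 0.206 and 0.47 ± 0.132 (edgeR adjusted p = 0.00384, 0.0306 and 0.0202). The 2 genes that fell were mxb and ifih1. The dynamin-like GTPase gene mxb fell by 1.96 ± 0.567 (edgeR adjusted p = 0.0236) and the double-stranded RNA sensor gene ifih1 by 1.31 ± 0.384 (edgeR adjusted p = 0.0249). The mxb call was lost without the first wild type, the first mutant or the third mutant (adjusted p 0.0780, 0.0899 and 0.0765, range over all alternatives 0.0193 to 0.0899). The ifih1 call did not survive leaving out any of 5 of the 6 embryos, nor DESeq2's Wald test, and its adjusted p ranged over all alternatives from 0.0213 to 0.0978. The other 12 fitted genes were not called. Chosen after their values were seen, mxa, mxc, usp18, isg20 and stat2 had log2 fold changes from -0.14 to 0.17. Higher but also uncalled were eif2ak2, at 1.02, and ifnphi3, at 0.63. Not fitted were isg15, with 0 to 15 counts per library, rsad2, with 0 to 4, and cmpk2, with 0.

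Of 13 fitted inflammasome genes, 3 rose and 1 fell (30.8%, beside 26.0%). The inflammatory caspase gene caspb rose from 50, 57 and 68 counts in wild types to 186, 151 and 149 in mutants, or 1.82 ± 0.179 on the log2 scale (edgeR adjusted p = 3.2e-05). The ATP-gated channel gene p2rx7 fell from 120, 210 and 179 counts to 48, 54 and 40, by 1.47 ± 0.216 (edgeR adjusted p = 0.000541). The other risers, hmgb1b and il1rapl1a, encode a chromatin protein and a synaptic adhesion protein rather than inflammasome parts. Of 32 fitted genes of Toll and NF-kB signalling, the kinase gene tbk1 rose by 0.33 ± 0.10 and the ubiquitin ligase gene traf6 fell by 0.37 ± 0.102 (6.25% called, beside 26.0%; edgeR adjusted p = 0.0298 and 0.0199). The list held 1 call without the first wild type or the first mutant and 0 without any other embryo. Both calls were lost when single embryos were left out, with adjusted p-values from 0.0290 to 0.110 for tbk1 and from 0.0122 to 0.0696 for traf6 over the alternatives.

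**Figure D5:**
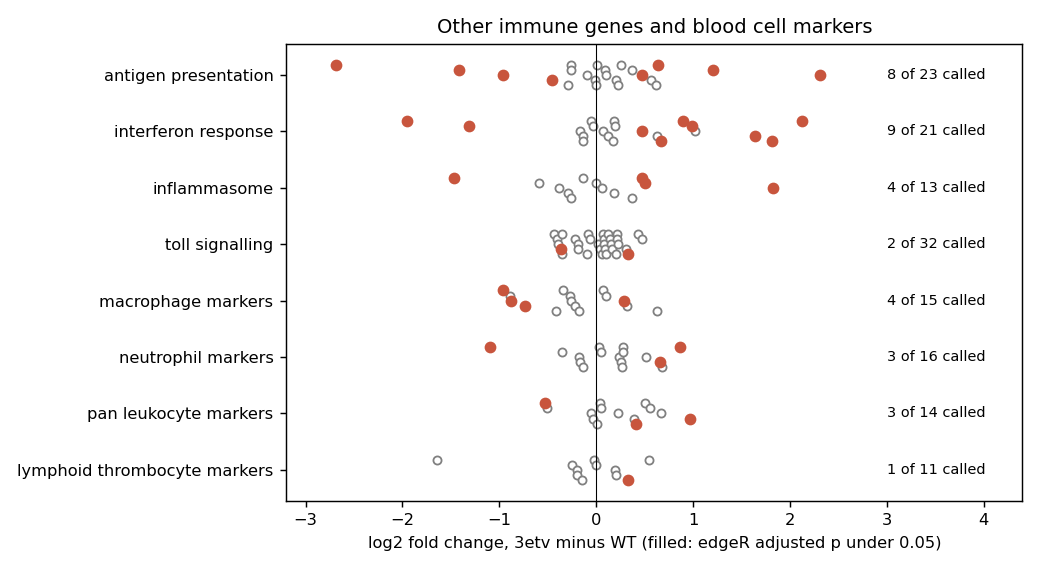
Log2 fold changes, mutants minus wild types, of the fitted genes of 8 lists that exclude the immune-family members, with filled points for genes called at an edgeR adjusted p under 0.05. Calls lie on both sides of 0 in all lists except the lymphoid and thrombocyte list, and the Toll signalling list has 2 of 32 genes called.

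Blood cell markers were set beside these differences. In the longer macrophage list 1 of 15 fitted genes rose and 3 fell (26.7%, beside 26.0% of all genes). Its sum was 609 to 805 CPM in wild types and 413 to 498 CPM in mutants. This sum was carried by the lipoprotein gene apoeb, which the yolk layer also expresses. The called genes were lgmn, at 0.29 on the log2 scale, and apoeb, slc7a7 and ctss2.1, at -0.73, -0.87 and -0.96. The lgmn and slc7a7 calls were each lost when single embryos were left out. Of 16 fitted neutrophil markers 2 rose and 1 fell (18.8%). Sums of the list were 57.5 to 67.5 CPM in wild types and 66.9 to 74.0 CPM in mutants. On the log2 scale cyba rose by 0.87 ± 0.244 and npsn by 0.66 ± 0.183, and cebp1 was lower by -1.10 ± 0.231. The cyba and npsn calls were each lost when single embryos were left out. Of 7 entries of defining neutrophil markers 4 were fitted, 1 called higher and 1 lower. These entries had overlapping sums, at 10.7 to 13.1 CPM in wild types and 11.4 to 12.6 CPM in mutants. The granule genes mpx and lyz were chosen after their values were seen. They had log2 fold changes of 0.05 and 0.03 (edgeR adjusted p = 0.866 and 0.954). Of 14 fitted markers of all leukocytes 2 rose and 1 fell (21.4%). Sums of that list were 286 to 311 CPM in wild types and 301.6 to 327 CPM in mutants. On the log2 scale arhgdig and wasb were higher by 0.41 and 0.97, and hcls1 was lower by -0.53. The wasb and hcls1 calls were each lost when single embryos were left out. Of 11 fitted lymphoid and thrombocyte markers 1 rose (9.09%), with sums of 324 to 331 CPM in wild types and 343 to 359 CPM in mutants, which did not overlap and were carried by tox, thbs1b and fn1a. The sum of the 6 defining lymphoid markers rag1, rag2, lck, cd4-1, cd8a and il7r lay the other way without overlap, at 2.08 to 2.88 CPM in wild types and 1.09 to 1.97 CPM in mutants. Of these 6 only the recombinase genes rag1 and rag2 were fitted and neither was called. The unfitted ones averaged 0.333 to 3.17 counts per library. Most of the difference in the sum was that of rag1, at 1.14 ± 0.401 CPM in wild types and 0.351 ± 0.382 CPM in mutants. Counts of rag1 were 32, 32 and 16 in wild types and 15, 5 and 0 in mutants, and the groups overlapped after scaling to depth (edgeR adjusted p = 0.0735), and rag2 had 13 to 27 counts per library. Without the third wild type or the second mutant 1 neutrophil marker was called, without any 1 of the mutants 1 marker of all leukocytes, and without the second wild type, the third wild type or the third mutant 0 lymphoid and thrombocyte markers, which were 2 without the first mutant. The part of cell numbers in the differences of the immune families was not tested.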

How the data were processed

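Poly-A RNA of 6 single whole zebrafish embryos was sequenced, 3 per genotype. The authors deposited raw read counts per gene. Alignment with STAR, counting with HTSeq and genome build GRCz11 are named per the submitters' processing notes, without their roles or versions. The annotation release and strand setting are not given in the sources used here, so overlapping and antisense genes are uncertain. A tab of the header line is a space, and after splitting there columns were matched to samples by name.

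The immune-family genes and the other gene lists were chosen with earlier results of these data known. Counts were analysed in R 4.3.3 with edgeR 4.0.16: filterByExpr, TMM factors and the quasi-likelihood test on genotype, with Benjamini-Hochberg adjusted p under 0.05 over all genes tested. SE is the absolute log2 fold change over the root of the F statistic. CPM are given as mean ± SD. Named were members with a mean of at least 10 counts, the highest of each family and up to 15 per direction by fold change, members present in 1 group only, and up to 4 called genes per direction of each list; other members are named as low, absent or neighbouring examples chosen after their values were seen. A floor of 3 counts served for absence. Ratios of summed counts carry exact conditional 95% intervals, which cover counting error only. Gene order came from RefSeq assembly GRCz12tu, a different build, so no coordinates are given. Sequences were not used here.

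Library totals of 17570505 to 25512862 put the floor of 3 counts at 0.117 to 0.177 CPM. Alternatives used DESeq2 1.42.0, limma 3.58.1 (voom), other scalings and filters, thinned depth, a replicate block and left-out embryos. Same-numbered embryos had correlations of deviations of -0.0694, 0.0856 and -0.111, so the numbers were not taken to pair them. The tests were checked on simulated data. P-values set the difference between the groups against the spread between these embryos, whose parentage is not given.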

Additional observations from a re-analysis of the deposited data

How the results depend on the processing

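Called members numbered 12 to 14 higher and 7 to 11 lower when single embryos were left out (all genes 1643 to 2266 and 1787 to 2572), and among genes averaging 50 counts or more 9 were higher and 4 lower (all genes 2026 and 2257), where fewer genes were tested. Without the low-count filter 18 were higher and 12 lower (all genes 2759 and 3053). Of 522 alternative values for named members, 507 moved by less than the spread between embryos, 15 moved further and no called value changed sign; the uncalled adgre10 (-0.05 with library totals, -0.07 without the third mutant) and tlr4ba (-0.01 without the first mutant) did. For named list genes 375 of 442 alternatives kept the call.

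Presence in mutants only held for 0 members with at most 0 counts in the absent group, 5 with at most 10 and 0 with at least 50 in the present group, and for 2 to 3 with embryos left out. Presence in wild types only held for 0, 6 and 1 (all genes 6, 144 and 4 in mutants only and 12, 366 and 6 in wild types only), and for 1 to 4 with embryos left out: without the second mutant, ftr43, ftr73 and ftr90 joined nlrc8.

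With a mean of at least 50 counts, antigen presentation had 5 calls and interferon response 5. Left-out embryos gave 0 to 1 calls for Toll signalling, 0 to 2 for lymphoid and thrombocyte markers, 1 to 4 for neutrophil and 1 to 2 for all-leukocyte markers. Library totals gave 1 call for Toll signalling and 0 for lymphoid markers, limma-voom 2 for lymphoid markers and no filter 3. The causes were not tested. With the replicate block, members gave 13 higher and 8 lower, Toll signalling 1 and lymphoid markers 2; no other count moved by over 1.5 times. At these depths a gene at 0 in a group may still be expressed below the floor.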
